A study of Mus musculus with 16 samples.

Results

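Oligodendrocyte precursor cells (OPCs) of the mouse hippocampus were taken from single-nucleus RNA sequencing of 16 libraries. A barcode counted as a nucleus at 500 or more unique molecular identifiers (UMIs, each standing for 1 captured transcript), 300 or more genes and at most 5% mitochondrial UMIs. A nucleus counted as an OPC when Pdgfra, Vcan, Cspg4 and Neu4 together had 3 or more UMIs and Lhfpl3 had 1 or more. It could hold at most 1 UMI of Mog and Mag together, of 9630013A20Rik and Enpp6 together, of Slc17a7, Gad1 and Gad2 together, and of Gja1. The first pair marks mature oligodendrocytes, the second newly formed ones, the third group neurons and the last gene astrocytes. The rule kept 3408 of 147873 nuclei, or 2.30%.

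All mice were female and 9 months old, and each group had 4 libraries. Mice with both copies of Ch25h (Ch25h+/+) and mice with none (Ch25h-/-) were each studied with the tau genotype present (Tau+) or absent (Tau-). Ch25h encodes cholesterol 25-hydroxylase, an interferon-induced enzyme that makes 25-hydroxycholesterol, and the study's title links STING, interferon and Ch25h to tau pathology. The comparisons below ask which OPC genes differed with tau and which differed with the loss of Ch25h. The labels do not name the tau line, the promoter of its transgene or the Ch25h allele, and they do not say whether littermates were used. They tie no sample to a named animal, so the p-values measure the spread between these libraries.

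OPCs are the dividing glial progenitors that stay in the adult brain, receive synapses from neurons and give rise to myelinating oligodendrocytes. PDGF signalling through Pdgfra keeps them proliferating, while Olig2, Sox10 and their partners drive the lineage and Gpr17 marks the step at which precursors commit to differentiation. Oligodendrocyte lineage cells in diseased brain can take up an interferon-induced and antigen-presenting state, with class I major histocompatibility genes and the complement gene C4b among its marks.

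Each library held 141 to 307 OPC nuclei with 524623 to 962610 UMIs in sum, and an OPC nucleus had a median of 2953 UMIs and 1626.5 genes. Whole libraries held 51270831 to 84870650 UMIs and 8130 to 11654 nuclei. Of the OPC barcodes, 2 occurred in more than 1 library. Between libraries of a group, OPC gene counts gave a chi-square of 1.51 to 3.48 for each degree of freedom, above the value near 1 that counting error alone would give. The nuclei outside the OPC class split the libraries into 2 sides along their first principal component. That component held 26.0% of the variance left after each group's mean was taken out. In every group, replicates 1 and 2 were separated from replicates 3 and 4. Replicate numbers follow accession order only, and the labels give no processing date for this split.

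The genes of the rule had the levels that the rule imposes, and are given as a description. On a CPM scale (a gene's share of the UMIs summed over OPC nuclei), Pdgfra, the PDGF receptor, averaged 825 and ranged from 701 to 980 over libraries. Lhfpl3 averaged 6255 CPM, Vcan, the proteoglycan versican, 1130 CPM, and Cspg4, the proteoglycan NG2, 327 CPM. Since the nuclei were chosen by their RNA, the other genes of the same nuclei are described without a test as well.

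OPC genes outside the rule went with the label. Ptprz1, a receptor phosphatase of glial progenitors, stood at 2432 CPM in OPC nuclei, 1619 CPM in astrocytes and 51.9 CPM in mature oligodendrocytes. Tnr, the matrix protein tenascin-R, stood at 3799 CPM against 73.6 CPM in mature oligodendrocytes and 1939 CPM in newly formed ones. The lineage factor Olig2 read 110 CPM against 28.3 CPM in mature oligodendrocytes and 0.199 CPM in neurons, whereas Sox10 read 411 CPM and 311 CPM in the 2 oligodendroglial classes. Genes listed as markers of other cell types were detected as well, some of them at high levels. Gpc5, a glypican listed as an astrocyte marker, read 4286 CPM in OPC nuclei, above Tnr, and 8230 CPM in astrocytes. The 6 astrocyte markers summed to 4470 to 6116 CPM over libraries on the TMM-scaled CPM used below. The myelin gene Mobp read 9.27 CPM in OPC nuclei and 981 CPM in mature oligodendrocytes, the astrocyte transporter Slc1a2 371 CPM against 6414 CPM in astrocytes, and the neuronal RNA Meg3 1242 CPM against 8990 CPM in neurons. Barcodes under 100 UMIs, which hold free RNA, read 9164 CPM of Meg3, 774 CPM of Slc1a2 and 294 CPM of Gpc5.

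**Figure D1:**
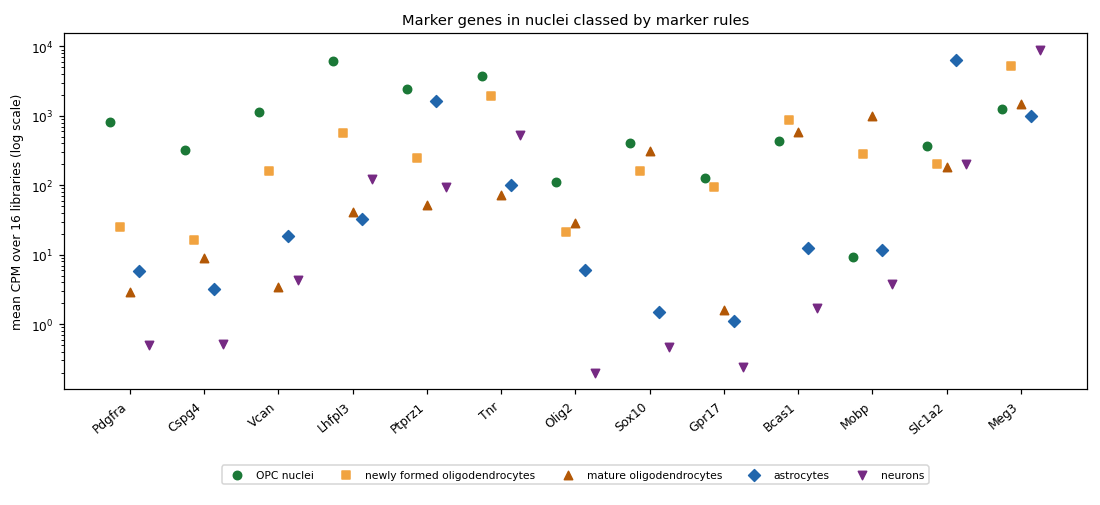
Mean level of 13 genes in nuclei classed by marker rules (CPM over 16 libraries, logarithmic axis; 1 symbol per class). OPC nuclei (circles) lead in Pdgfra, Cspg4, Vcan, Lhfpl3, Ptprz1, Tnr and Olig2, with Ptprz1 at 2432 CPM, and stay under mature oligodendrocytes in Mobp, at 9.27 CPM against 981 CPM. A class with no mean above 0 for a gene has no symbol.

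Nuclei at the edge of the rule were less distinct. The 311 OPC nuclei that held exactly the minimum of the 4 summed markers read 2107 CPM of Ptprz1, 3044 CPM of Tnr and 367 CPM of the neuronal gene Snap25. The 305 nuclei that missed the minimum by 1 UMI and met every other condition read 972 CPM, 1713 CPM and 670 CPM.

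Among genes at 50 CPM or more in OPC nuclei, the 20 with the largest ratio to all other nuclei included 4 genes of the rule, among them Neu4 (186-fold) and Pdgfra (152-fold). Of the rest, Gucy2f, a guanylate cyclase, stood 128-fold higher, Susd5 123-fold, and C1ql1, a secreted C1q-like protein, 94.5-fold. Gpr17 was 80.1-fold higher, the adaptor Shc4 76.3-fold and the carbonic anhydrase-related gene Car8 69.5-fold. Cacng4, an auxiliary subunit of AMPA receptors and calcium channels, read 530 CPM against 7.84 CPM, or 67.6-fold. The guidance cue Ntn1 was 56.7-fold higher.

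Gpr17 was counted per nucleus as a mark of commitment, and its UMIs were not particular to OPCs. With each nucleus thinned to 1500 UMIs, 568 of 3237 OPC nuclei (17.5%) held a Gpr17 UMI, against 10.6% of newly formed oligodendrocytes, 0.293% of mature oligodendrocytes and 0.056% of neurons. The median over libraries of the depth before thinning was 2944 UMIs in OPC nuclei, 1737 UMIs in mature oligodendrocytes and 10220.5 UMIs in neurons. The thinning left out 171 shallower OPC nuclei, unevenly over the groups. They were 19 in Ch25h+/+ Tau+, 75 in Ch25h+/+ Tau-, 34 in Ch25h-/- Tau+ and 43 in Ch25h-/- Tau-. OPC nuclei with Gpr17 read 568 CPM of Bcas1, a gene of early myelinating cells, and those without read 428 CPM, with the higher value in 14 of 16 libraries. Sirt2 read 190 CPM against 145 CPM and was higher in 13 libraries. Of the 21 early differentiation and myelin genes outside the selection rule, Cnp, Itpr2 and Ugt8a were lower in the nuclei with Gpr17. Itpr2, a calcium release channel, read 431 CPM against 487 CPM and was higher in 6 libraries. The differentiation factor Tcf7l2 read 134 CPM against 167 CPM and was higher in 5 libraries. The matrix gene Tnr read 4240 CPM against 3851 CPM and was higher in 14.

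Neither the OPC share of nuclei nor the Gpr17 share passed a test for tau. OPC nuclei made up 2.24% ± 0.05 (SD, n = 4) of nuclei in Ch25h+/+ Tau+ and 2.37% ± 0.30 in Ch25h+/+ Tau-. In Ch25h-/- they made up 2.38% ± 0.29 with tau and 2.18% ± 0.46 without. The tau difference over both genotypes was 0.04 percentage points (exact permutation p = 0.807, two-sided, adjusted p = 0.943 over 24 share tests by Benjamini-Hochberg). The Gpr17 share was 15.8% ± 2.41, 18.4% ± 4.37, 18.3% ± 2.85 and 18.3% ± 1.05 in the same order of groups, with an exact permutation p of 0.407 for tau and an adjusted p of 0.726. Before thinning these shares were 28.8%, 31.0%, 31.2% and 32.5%. Within 1 genotype or tau state 4 against 4 libraries cannot give a p under 0.0286, and over both levels the smallest p is 0.000408.

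The number of OPC nuclei per 100 mature oligodendrocyte nuclei was lower with tau, without passing the adjusted threshold. In Ch25h+/+ it was 25.6, 15.4, 18.9 and 16.3 in the 4 Tau+ libraries and 20.4, 35.7, 27.7 and 32.6 in the Tau- ones. In Ch25h-/- it was 18.1, 14.2, 17.7 and 17.2 with tau and 17.2, 29.9, 52.3 and 76.2 without. The means over both genotypes were 17.9 and 36.5 (exact permutation p = 0.00367, adjusted p = 0.0882). The highest ratios came from the 2 libraries with the fewest mature oligodendrocyte nuclei, 342 and 349 against 726 to 1353 in the others. The mature oligodendrocyte nuclei themselves numbered 892 to 1353 in the Tau+ libraries and 342 to 859 in the Tau- ones, without overlap. The OPC share of all nuclei averaged 2.31% with tau and 2.28% without. The ratio thus does not show fewer OPCs with tau, and the cause of its difference was not tested. With nuclei of at least 1000 UMIs the adjusted p was 0.0441. That setting left out the Gpr17 and cell cycle shares, so its adjustment ran over fewer tests. Under 4 of the 5 other settings the ratio did not pass (exact permutation, adjusted p up to 0.118). With 1 library left out the adjusted p ran from 0.0196 to 0.48, and the ratio passed for 1 of the 16.

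Few OPC nuclei carried mitotic transcripts. A list of cell cycle genes gave 2 or more UMIs in 13.8% of OPC nuclei but also in 24.7% of mature oligodendrocytes, which express the list member Anln (423 CPM against 3.63 CPM in OPC nuclei), so its share is not read as cycling. With 10 mitotic genes, Mki67, Top2a, Cenpf and Aspm among them and chosen after that was seen, 26 of 3237 OPC nuclei (0.803%) had 2 or more UMIs. The same genes gave 4 of 1011 newly formed oligodendrocytes (0.396%), 7 of 9895 mature oligodendrocytes (0.0707%) and 39 of 30357 neurons (0.128%). Group means were 1.11%, 0.408%, 0.944% and 0.798% in the order above. The tau difference of 0.43 percentage points had an exact permutation p of 0.245 and an adjusted p of 0.743. This adjustment ran over the tests of the mitotic measure alone, apart from the other share tests. Top2a, a topoisomerase of dividing cells, averaged a log2 difference of 1.62 ± 0.48 (SE) with tau in the edgeR fit described next, with an adjusted p of 0.349. Without replicate 3 of Ch25h+/+ Tau- the Top2a difference was 2.44 (adjusted p = 0.0383), and with no filter on low counts Top2a passed as well (adjusted p = 0.00256). It did not pass for 15 of the 16 libraries left out in turn (adjusted p up to 0.609, edgeR), nor under 8 of 9 other settings.

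**Figure D2:**
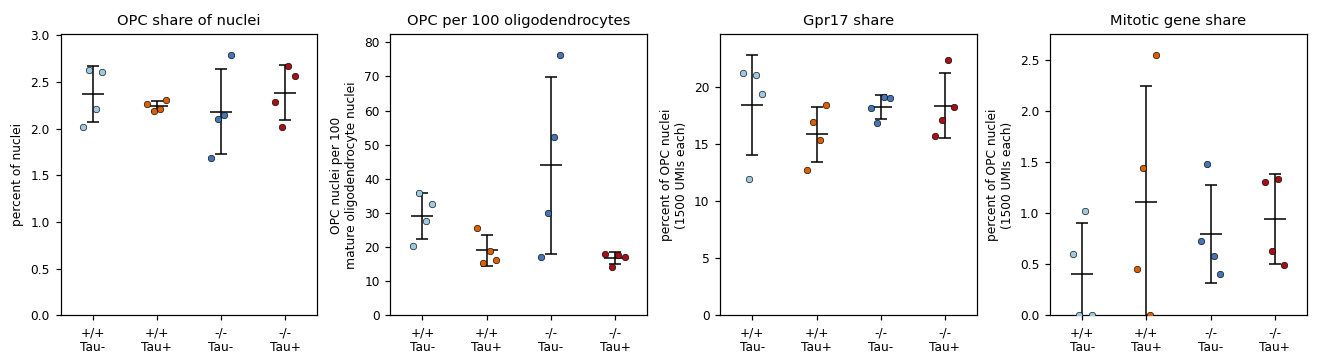
OPC share of nuclei, OPC nuclei per 100 mature oligodendrocyte nuclei, and shares of OPC nuclei with a Gpr17 UMI or with 2 or more UMIs of mitotic genes (points, libraries; bars, mean and SD of 4 libraries, with lower bars of the mitotic panel ending at 0). The ratio to mature oligodendrocytes is the panel in which Tau+ libraries sit low, between 14.2 and 25.6.

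Between Tau+ and Tau- libraries, 14 of 9578 tested genes differed in OPC nuclei. OPC counts were summed per library and tested with edgeR's quasi-likelihood test, and a gene is said to have risen or fallen at a Benjamini-Hochberg adjusted p under 0.05. Differences are log2 fold changes, given ± a standard error (SE) worked back from the fold change and the F statistic of the test. The values per library that follow are CPM with edgeR's TMM scaling. Averaged over both Ch25h genotypes, 9 genes rose with tau and 5 fell, together 0.146% of the genes tested (0.094% and 0.0522% by direction, respectively). At an unadjusted p under 0.05 there were 597 genes. The number called moved with the settings, from 6 to 27 with 1 library left out and from 12 to 71 under other alternatives. The Tau+ and Tau- libraries did not overlap for 6 genes, 0.0626% of those tested. Prnp, Gm43049 and H2-D1 were higher (0.0313%) and Ccbe1, Tmem135 and Tmem229b lower (0.0313%). Tmem135 and Tmem229b did not pass the test, and they were named after their values were seen. Within Ch25h+/+ the groups did not overlap for 2.62% of genes tested (1.23% higher with tau, 1.39% lower), and within Ch25h-/- for 3.08% (1.52% higher, 1.56% lower), the background for each such statement below.

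The largest difference was in Gm43049, a long intergenic noncoding RNA at chr3:140692038-140760704 (GRCm38). It read 74.3, 85.7, 66.5 and 64.2 CPM in the Ch25h+/+ Tau+ libraries and 90.6, 77.2, 87.6 and 83.8 CPM in the Ch25h-/- Tau+ ones. All 8 Tau- libraries were at 0. Against a floor of 3 UMIs over the group it was at least 141-fold higher with tau, a bound that covers counting error only. Of 8 tested genes near it on chromosome 3, it alone rose, and the median log2 difference of the 8 was -0.07. Among listed neighbours too low to test, Gm32754 (chr3:140904998-140917459) had 27 UMIs with tau and 0 without, at least 8.29-fold higher by the same floor. Every Tau+ library stood above every Tau- library for it. The neighbour 4930590L14Rik had 4 UMIs with tau and 0 without. Gm43049 was present with tau in every class compared, from 12.8 CPM in astrocytes to 91.3 CPM in neurons as group values.

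Prnp, which encodes the prion protein (chr2:131909928-131938429), rose by 0.94 ± 0.14 on the log2 scale (adjusted p = 0.00043, edgeR). The Ch25h+/+ Tau+ libraries read 84.5, 96.2, 114 and 107 CPM and the Ch25h+/+ Tau- ones 49.4, 58.6, 76.3 and 58.4 CPM. In Ch25h-/- it read 91.6, 93.5, 128 and 147 CPM with tau and 33.0, 58.0, 45.8 and 63.0 CPM without. Every Tau+ library stood above every Tau- library, and the free RNA did not move with it, at 366 to 382 CPM in the 4 groups. Many tau transgenes carry promoter and transcript parts of this gene. As the labels do not name the construct, UMIs of the gene itself and of such parts cannot be told apart. Mapt, the mouse gene for tau, differed by 0.16 ± 0.08 (adjusted p = 0.814, edgeR).

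Members of the interferon list and of the antigen presentation and immune list were among the genes that rose, 2 of each. Irf9 encodes the DNA-binding subunit of the complex that carries type I interferon signals to the nucleus, and it rose. Of 31 listed interferon genes 29 were in the files and 11 had enough counts to be tested. Of these, 2 passed, Irf9 among them, where 0.094% of all tested genes rose. Of the 11, 10 were positive, against 4727 of all 9578, with a median log2 difference of 0.65 against -0.00 over all genes tested. The median was 0.63 in Ch25h+/+ and 0.79 in Ch25h-/-. The filter kept a gene with enough UMIs in as few libraries as 1 group holds. A low gene could thus enter through Tau+ libraries alone, so these counts and medians can lean upward and are no test of the list. The 18 members that were not tested had too few UMIs in OPC nuclei, so nothing is said of them.

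Irf9 (chr14:55603571-55610030) rose by 1.68 ± 0.34 (adjusted p = 0.0322, edgeR) from low levels. It read 36.4, 9.23, 14.6 and 15.3 CPM in Ch25h+/+ Tau+ and 3.95, 6.90, 11.4 and 8.76 CPM in Ch25h+/+ Tau-. Irf9 in Ch25h-/- read 40.03, 19.3, 13.5 and 37.1 CPM with tau and 11.7, 1.66, 4.74 and 7.42 CPM without. The groups overlapped in Ch25h+/+ and not in Ch25h-/-. With each library left out in turn the adjusted p reached 0.106, and the call was lost for 9 of the 16 libraries. Without replicate 1 of Ch25h+/+ Tau+, the highest library of that group, the log2 difference was 1.41.

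Other interferon genes had positive differences that did not pass in this fit. The kinase Eif2ak2 differed by 1.35 ± 0.34 (adjusted p = 0.174, edgeR) and the RNA sensor Ddx58 by 0.95 ± 0.29 (adjusted p = 0.416). Ifi27 differed by 0.74 ± 0.17 (adjusted p = 0.115), and it passed with the split of the libraries as a term (0.72, adjusted p = 0.0181) and with DESeq2 (adjusted p = 0.0313). With no filter on low counts Ifi27, Eif2ak2 and Ddx58 passed. Rnf213 differed by 0.65 ± 0.25 and Stat2 by 0.56 ± 0.20. Ifnar1, a subunit of the type I interferon receptor, was the one negative member, at -0.02 ± 0.20.

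Parp11, an ADP-ribosyltransferase that modifies the interferon receptor pathway, rose as well (chr6:127446840-127494261), by 0.96 ± 0.17 with an adjusted p of 0.00772 in edgeR. It read 102, 48.8, 40.5 and 60.0 CPM in Ch25h+/+ Tau+ and 53.3, 31.0, 50.3 and 45.3 CPM in Ch25h+/+ Tau-. Levels in Ch25h-/- were 80.1, 72.7, 64.7 and 96.7 CPM with tau and 33.0, 21.5, 30.03 and 32.1 CPM without. The groups overlapped in Ch25h+/+ and stood well apart in Ch25h-/-, where Parp11 was 1 of 4 genes that passed by themselves (1.41 ± 0.25, adjusted p = 0.00921). That call was lost for 5 of the 16 libraries left out in turn, with an adjusted p of up to 0.137, and on either side of the split alone (up to 0.257). The interaction of tau and Ch25h did not pass for it (0.90 ± 0.35, adjusted p = 0.9998, edgeR). In mature oligodendrocytes Parp11 read 11.9 to 14.2 CPM in the 4 groups and in neurons 18.6 to 20.9 CPM.

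The promoters of the 14 genes called, 9 that rose and 5 that fell, were searched for 2 motifs of interferon signalling. The first was GAAA, any 2 bases and GAAA again, the core bound by the complex that holds Irf9, and the second TTCNNNGAA, the core of the gamma-activated site, each on both strands of the 250 bases before a RefSeq start (GRCm38.p6). Of these genes 7 had a promoter there. Parp11 has 2 RefSeq starts, and the window of 1 of them held both motifs, which overlap, while the other window held neither. The other 6 genes held neither. Of all 32851 promoter windows 2.98% held the first motif and 7.02% the second, and of the tested genes with a promoter there 2.85% and 6.84%. Of 9 matched interferon genes, Stat2 held the first motif and Ifit2 (in 1 of its 2 windows), Eif2ak2 and Ifnar2 the second. Shown are the matching window of Parp11, at chr6:127446590-127446839 on the plus strand, and, for comparison, that of H2-D1, at chr17:35262844-35263093 on the plus strand. In the first, the capitals mark the joined motifs, the first of which is read on the minus strand and ends 34 bases before the start, while the second ends 28 bases before it. The H2-D1 window precedes a RefSeq start and lies within the GENCODE span of the gene given below. A match describes letters and shows no binding. Both patterns are strict and other forms of these elements were not searched, so a window without a match may still hold one.
Parp11: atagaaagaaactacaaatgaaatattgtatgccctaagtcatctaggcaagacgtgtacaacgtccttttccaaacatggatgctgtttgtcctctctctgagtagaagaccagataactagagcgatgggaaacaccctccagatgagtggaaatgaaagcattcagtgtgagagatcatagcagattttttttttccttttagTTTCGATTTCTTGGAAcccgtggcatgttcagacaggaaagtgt
H2-D1: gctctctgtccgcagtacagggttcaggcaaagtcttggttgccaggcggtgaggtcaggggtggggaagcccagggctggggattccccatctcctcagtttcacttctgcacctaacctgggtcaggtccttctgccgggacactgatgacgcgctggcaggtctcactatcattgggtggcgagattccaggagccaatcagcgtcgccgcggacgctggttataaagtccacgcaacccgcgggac

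H2-D1, a class I major histocompatibility gene (chr17:35262730-35267499), rose by 1.16 ± 0.19 with an adjusted p of 0.00406 in edgeR. It read 58.3, 38.2, 32.4 and 36.3 CPM in Ch25h+/+ Tau+ and 17.8, 20.7, 9.74 and 16.1 CPM in Ch25h+/+ Tau-. The Ch25h-/- levels were 43.2, 40.1, 29.6 and 35.5 CPM with tau and 17.5, 28.2, 14.2 and 16.1 CPM without. All 8 Tau+ libraries stood above all 8 Tau- libraries. Its free RNA moved the same way, 95.6 and 83.4 CPM with tau against 33.0 and 38.6 CPM without, and the part of free RNA in the OPC difference was not tested. The near-identical paralog H2-K1 differed by 1.01 ± 0.26 (adjusted p = 0.217, edgeR). Over 10 other settings the H2-K1 difference ran from 0.29 to 1.56, and it passed with no filter on low counts (adjusted p = 0.00211), on side 1 of the split alone and without replicate 3 of Ch25h+/+ Tau+ (adjusted p = 0.0191). How the counting split reads between H2-D1 and H2-K1 is uncertain.

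Of 26 listed antigen presentation and immune genes 7 were tested. H2-D1 and Cd9 rose, where 0.094% of all tested genes did. Of the 7, 5 were positive, against 4727 of all 9578, and their median was 0.48 against -0.00. The limit that the filter sets on such counts, given for the interferon list, holds here as well. Cd9, a tetraspanin of the cell surface, rose by 0.48 ± 0.10 (adjusted p = 0.0325, edgeR). It read 256, 204, 190 and 258 CPM in Ch25h+/+ Tau+, 217, 139, 170 and 191 CPM in Ch25h+/+ Tau-, 212, 242, 193 and 185 CPM in Ch25h-/- Tau+, and 150, 111, 133 and 151 CPM in Ch25h-/- Tau-. The Ch25h+/+ groups overlapped and the Ch25h-/- groups did not. The call was lost for 9 of the 16 libraries left out in turn, with an adjusted p of up to 0.118.

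The complement gene C4b had the largest estimate of that list but missed the threshold, at 2.70 ± 0.49 (adjusted p = 0.0551, edgeR). It read 91.8, 52.7, 8.11 and 44.6 CPM in Ch25h+/+ Tau+ and 3.95, 8.05, 4.87 and 7.30 CPM in Ch25h+/+ Tau-. In Ch25h-/- it read 45.3, 50.5, 12.1 and 43.5 CPM with tau and 15.6, 4.97, 4.74 and 3.71 CPM without. Replicate 3 was the lowest Tau+ library in each genotype. With the split of the libraries as a term C4b passed, at an adjusted p of 0.00401, as it did under 6 of 11 other settings in all. Free RNA of C4b was 115 and 63.2 CPM with tau and 17.5 and 16.5 CPM without.

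Markers of other cells were read beside these genes. Over 7 microglial markers the summed level in OPC nuclei was 120 to 223 CPM and 156 to 205 CPM in the Tau+ groups, against 87.6 to 175 CPM and 86.9 to 171 CPM without tau. Tmem119 was at 0 in all Ch25h+/+ Tau+ libraries. Mature oligodendrocyte markers summed to 169 to 313 CPM with tau and 157 to 341 CPM without. Astrocyte markers, with Gpc5 as the largest part, summed to 4470 to 5330 CPM in Ch25h+/+ Tau+ against 5092 to 5533 CPM in Ch25h+/+ Tau-. In Ch25h-/- they summed to 4661 to 5132 CPM with tau against 5161 to 6116 CPM without. These sums overlapped in Ch25h+/+ and were lower with tau without overlap in Ch25h-/-. Neuronal markers summed to 1657 to 2259 CPM with tau and 1120 to 2702 CPM without. Endothelial markers summed to at most 12.99 CPM, except for 105 CPM in replicate 3 of Ch25h+/+ Tau+. Fibroblast and mural markers summed to 56.8 CPM in replicate 1 of that group, 43.7 CPM of it Vtn, and to at most 28.4 CPM in the other groups. Replicate 1 is also the highest of its group for Irf9, Parp11, H2-D1 and C4b. Without it Irf9 stood at 1.41 (adjusted p = 0.106, edgeR) and C4b at 2.47 (adjusted p = 0.0447). Of the 7 microglial markers 4 had the counts to be tested, and none of the 4 passed. Inpp5d, a phosphatase of microglia, stood at 1.14 ± 0.63 (adjusted p = 0.853, edgeR). The complement gene C1qa, too low to be tested, read 11.7, 13.2, 0 and 12.6 CPM in Ch25h+/+ Tau+ and 0, 8.05, 8.12 and 2.92 CPM in Ch25h+/+ Tau-. In Ch25h-/- C1qa read 11.6, 13.4, 10.8 and 9.67 CPM with tau and 3.89, 0, 3.16 and 3.71 CPM without, so that its groups overlapped in Ch25h+/+ and not in Ch25h-/-. Free RNA held 143 and 109 CPM of C1qa in the Tau+ groups and 73.4 and 66.9 CPM without tau. No fibroblast, mural or endothelial marker had the counts to be tested, and no tested marker of the other classes passed. With OPC nuclei holding no UMI of the other classes' rule genes (2130 nuclei), 17 genes were called, 9 of them among the 14. Those rule genes include no microglial, fibroblast, mural or endothelial marker, so that setting does not screen for RNA of these cells. The part of other cells' RNA in the immune genes was not tested.

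**Figure D3:**
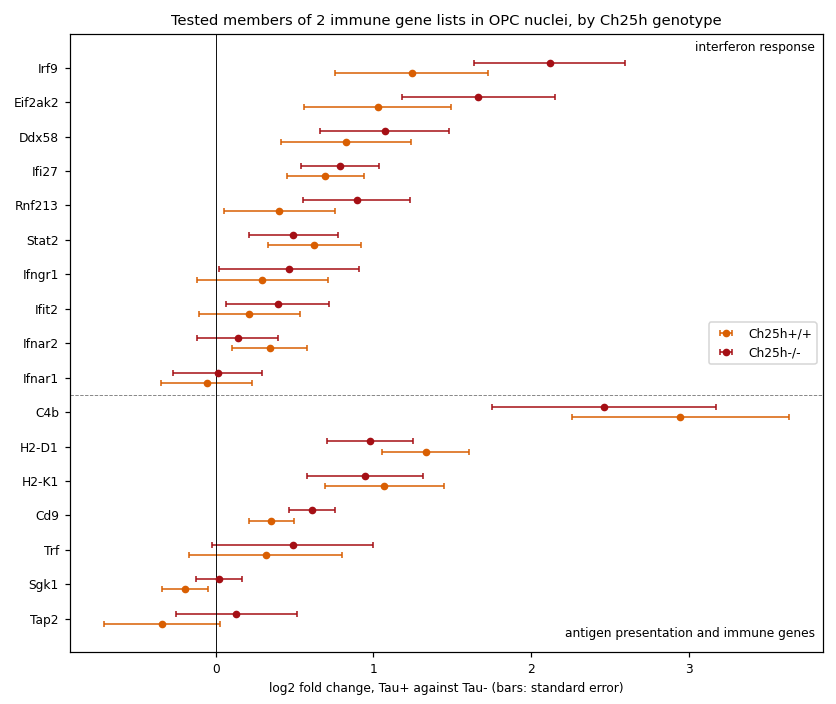
Log2 fold change of Tau+ against Tau- in OPC nuclei for 10 of the 11 tested members of the interferon list (above the dashed line) and the 7 tested members of the antigen presentation and immune list (below it), in Ch25h+/+ and Ch25h-/- (points, edgeR estimates; bars, SE). The 10 interferon members drawn are positive in Ch25h-/- and 9 of them are in Ch25h+/+, and C4b has the largest estimate in both.

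Pvt1, a long noncoding RNA, and Sema3d, a secreted guidance cue, completed the genes that rose. Pvt1 rose by 0.69 ± 0.14 (adjusted p = 0.0285, edgeR), from 53.3 to 73.0 CPM in Ch25h+/+ Tau- to 65.9 to 108 CPM with tau, and from 38.1 to 68.0 CPM to 79.5 to 132 CPM in Ch25h-/-. Sema3d rose by 0.43 ± 0.09 (adjusted p = 0.0322, edgeR). Its levels were 447, 473, 332 and 442 CPM in Ch25h+/+ Tau+ against 338, 290, 258 and 418 CPM, and 469, 404, 447 and 476 CPM in Ch25h-/- Tau+ against 321, 277, 319 and 366 CPM. Both genes overlapped between the Ch25h+/+ groups and not between the Ch25h-/- groups. With each library left out in turn, the call was lost for 9 of the 16 libraries for Pvt1 (adjusted p up to 0.106) and for 11 for Sema3d (adjusted p up to 0.106).

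Of the 5 genes that fell, 4 are described. Shisa9, an auxiliary protein of AMPA receptors, fell by 0.52 ± 0.10 (adjusted p = 0.0119, edgeR). It read 140, 192, 180 and 187 CPM in Ch25h+/+ Tau+ and 235, 330, 356 and 285 CPM in Ch25h+/+ Tau-, and in Ch25h-/- 174, 232, 225 and 197 CPM with tau and 216, 260, 212 and 287 CPM without. The groups stood apart in Ch25h+/+, where Shisa9 passed alone (-0.79 ± 0.14, adjusted p = 0.0128), and overlapped in Ch25h-/-. The interaction did not pass (0.54 ± 0.20, adjusted p = 0.9998). Without nuclei of high doublet score the log2 difference over both genotypes was -0.37 with an adjusted p of 0.288. The call was also lost without replicate 1 of Ch25h-/- Tau+ or replicate 4 of Ch25h-/- Tau-, with an adjusted p of up to 0.0599.

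Ccbe1, a secreted protein of the extracellular matrix, fell by 0.86 ± 0.16 (adjusted p = 0.0106, edgeR). It read 29.1, 39.5, 47.0 and 20.9 CPM in Ch25h+/+ Tau+ and 51.3, 62.1, 64.9 and 62.8 CPM in Ch25h+/+ Tau-. Ccbe1 in Ch25h-/- read 41.1, 20.8, 49.9 and 37.1 CPM with tau and 66.1, 59.7, 75.9 and 75.4 CPM without. All Tau+ libraries lay below all Tau- libraries, while neurons, which hold more Ccbe1, read 117 and 124 CPM with tau and 102 and 111 CPM without.

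The lipid phosphatase gene Inpp4b fell by 0.44 ± 0.08 (adjusted p = 0.00772, edgeR), from 614 to 862 CPM to 420 to 508 CPM in Ch25h+/+ and from 534 to 750 CPM to 489 to 601 CPM in Ch25h-/-. The X-linked protocadherin gene Pcdh11x fell by 0.33 ± 0.07 (adjusted p = 0.0384, edgeR). Its range was 627 to 741 CPM with tau and 711 to 882 CPM without in Ch25h+/+, and 576 to 722 CPM and 729 to 966 CPM in Ch25h-/-. The Pcdh11x groups overlapped in Ch25h+/+ only, and those of Inpp4b in Ch25h-/- only. The Pcdh11x call was lost for 11 of the 16 libraries left out in turn, with an adjusted p of up to 0.134, and that of Inpp4b for none of them. The Pcdh11x difference was -0.50 on side 1 of the split and -0.14 on side 2 (adjusted p = 0.888).

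**Figure D4:**
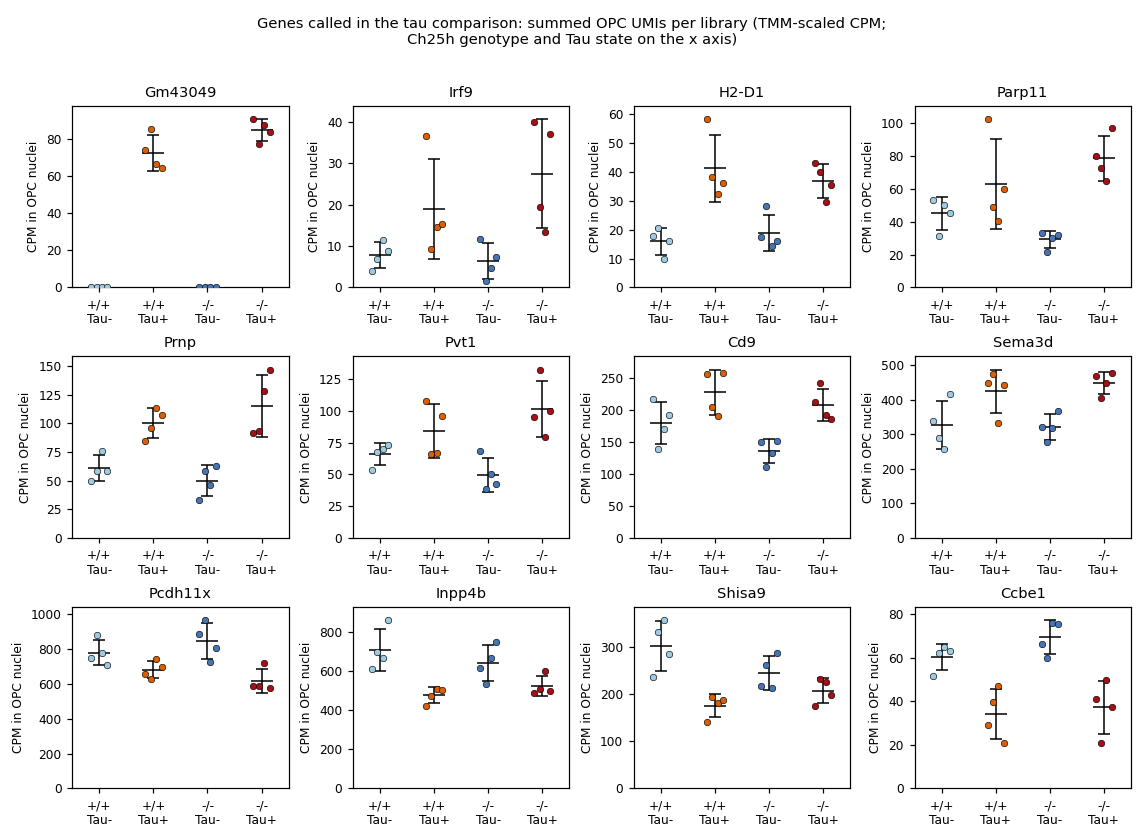
Level per library of 12 of the 14 genes that differed with tau over both genotypes (points, TMM-scaled CPM of summed OPC counts; bars, mean and SD of 4 libraries). Gm43049 is at 0 in all Tau- libraries and between 64.2 and 90.6 CPM in the Tau+ ones, and the genes that fell are the last 4 panels.

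Within one Ch25h genotype fewer genes passed. In Ch25h+/+ there were 4 of 9578 (0.0418%), against 470 at an unadjusted p under 0.05. Gm43049 and Reln rose (0.0209%) and Shisa9 and Inpp4b fell (0.0209%). In Ch25h-/- there were 4 (0.0418%; 465 unadjusted): Gm43049, Parp11, Prnp and Pvt1. With libraries left out in turn, the Ch25h+/+ call was lost for 3 of 16 for Shisa9 (adjusted p up to 0.136, edgeR) and 5 for Inpp4b (up to 0.337). The Ch25h-/- call was lost for 2 of 16 for Prnp (up to 0.0782) and 6 for Pvt1 (up to 0.358). These 2 contrasts share no library, and whether their lists differ was asked by the interaction, which called 0 genes in edgeR (331 at an unadjusted p under 0.05, and 0 with DESeq2). Under 3 of 11 other settings the interaction did call genes, at most 5.

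Reln, which encodes the secreted protein reelin (chr5:21884454-22344702), rose with tau in Ch25h+/+ by 1.84 ± 0.34 (adjusted p = 0.0271, edgeR). It read 43.7, 87.0, 47.0 and 34.9 CPM in Ch25h+/+ Tau+ and 11.8, 18.4, 21.1 and 7.30 CPM in Ch25h+/+ Tau-. Reln in Ch25h-/- read 22.1, 14.8, 6.74 and 17.7 CPM with tau and 25.3, 13.3, 30.03 and 22.2 CPM without. The 4 Ch25h+/+ Tau+ libraries thus stood above all others. The interaction was -2.37 with an adjusted p of 0.773 in edgeR, and 0.000801 with no filter on low counts. Interneurons express Reln strongly, and the neurons as a whole read 102 to 123 CPM. With the stricter marker rule the adjusted p in Ch25h+/+ was 0.510, and without nuclei of high doublet score it was 0.330. The call was also lost for 5 of the 16 libraries left out in turn, with an adjusted p of up to 0.230.

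The lists named next had no tested member past the test. Only 7 of 30 listed cell cycle genes, 9 of 25 stress genes and 10 of 23 cholesterol synthesis and uptake genes were tested. Nothing is said of members that were not tested. None of the members of the lists of growth factor receptors (22 tested), lineage transcription factors (25), differentiation brakes and cues (25), early differentiation and myelin genes (16), extracellular matrix (27), neurotransmitter receptors (28), ion channels (28), cell cycle (7), cholesterol synthesis (10), LXR and cholesterol efflux (16) or stress response (9) passed. Their median log2 differences ran from -0.06 for the receptors of neurotransmitters to 0.09 for the cell cycle genes, against -0.00 over all genes. Over all 9578 genes tested, 4727 were positive and 0.094% rose. Of 39 adhesion and guidance genes Sema3d rose, and 28 were negative, with a median of -0.07. Among receptors of neurotransmitters 20 of 28 were negative, led by the GABA receptor subunit Gabrb1 at -0.36 ± 0.11 (adjusted p = 0.398, edgeR). With the split of the libraries as a term Gabrb1 was called (-0.36, adjusted p = 0.0226). Robo1, a receptor for Slit cues, read -0.23 ± 0.07 (adjusted p = 0.305).

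Of the lineage factors, Nr2f1, at 0.47 ± 0.21 (adjusted p = 0.740, edgeR), and Prox1, at -0.32 ± 0.15 (adjusted p = 0.788), had the lowest p-values. Olig1 differed by -0.08 ± 0.29, Olig2 by -0.21 ± 0.18, and Sox10 by 0.21 ± 0.12, and outside that list Ptprz1 by 0.03 ± 0.05 and Gpr17 by -0.18 ± 0.13, with adjusted p-values of 0.872 or more in edgeR. Bcas1, of the early differentiation list, differed by 0.18 ± 0.07 (adjusted p = 0.678). Apoe, a lipid carrier and LXR target, differed by -0.02 ± 0.32 over libraries of 460.2 to 1078 CPM. Replicate 3 of Ch25h+/+ Tau- fell outside that range at 89.3 CPM, and its Apoe was low in free RNA and the other classes too.

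Mature oligodendrocytes were compared to ask which of these differences were particular to the precursor stage. The tau difference of the classes differed for 2 of 11386 genes (0.0176%; 790 at an unadjusted p under 0.05), Chd3 and Ermard, both more positive in OPCs. For 8 of the 16 libraries left out in turn, and with DESeq2, 1 of these 2 genes lost the call. The number of genes called ran from 1 to 18 with 1 library left out and from 2 to 7 under other settings. Chd3, a chromatin remodeller of the NuRD complex, differed between the classes by 1.15 ± 0.18 (adjusted p = 0.00444, edgeR). It stood at 0.60 in OPC nuclei (adjusted p = 0.177, and 0.0216 with the split of the libraries as a term) and -0.57 in mature oligodendrocytes (adjusted p = 0.224). In OPC nuclei it read 102, 83.03, 76.2 and 78.1 CPM in Ch25h+/+ Tau+ against 82.9, 65.5, 32.5 and 35.0 CPM, and 82.2, 86.1, 84.9 and 62.9 CPM in Ch25h-/- Tau+ against 60.3, 59.7, 61.6 and 40.8 CPM. The groups did not overlap in Ch25h-/- and overlapped in Ch25h+/+.

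Ermard, a gene of neurodevelopment, differed between the classes by 1.07 ± 0.20 (adjusted p = 0.0295, edgeR), at 1.43 in OPC nuclei (adjusted p = 0.115) and 0.33 in mature oligodendrocytes. In OPC nuclei alone Ermard passed the tau test under 5 of 11 other settings and for 1 of the 16 libraries left out. It read 106, 65.9, 58.4 and 86.5 CPM in Ch25h+/+ Tau+ and 33.6, 31.0, 30.8 and 21.9 CPM in Ch25h+/+ Tau-, and in Ch25h-/- 139, 104, 31.0 and 54.8 CPM with tau and 40.8, 14.9, 36.4 and 33.4 CPM without. Replicate 3 of Ch25h-/- Tau+ lay within the Tau- range.

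Of the 14 genes called in OPCs, 13 gave a usable estimate of the difference between the classes, and none of the 13 passed. Gm43049 gave none. Prnp came nearest, with 0.94 in OPCs, 0.37 in mature oligodendrocytes and a difference of 0.59 ± 0.13 (adjusted p = 0.0737, edgeR). H2-D1 leaned the other way, with 2.42 ± 0.43 in mature oligodendrocytes (adjusted p = 0.0709) and a difference of -1.27 ± 0.32 (adjusted p = 0.225). Irf9 stood at 1.13 in mature oligodendrocytes and Cd9 at 0.46. C4b passed there, at 3.35 ± 0.46 (adjusted p = 0.0274), as 1 of 3 genes of 12001 (0.025%; 1277 unadjusted).

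**Figure D5:**
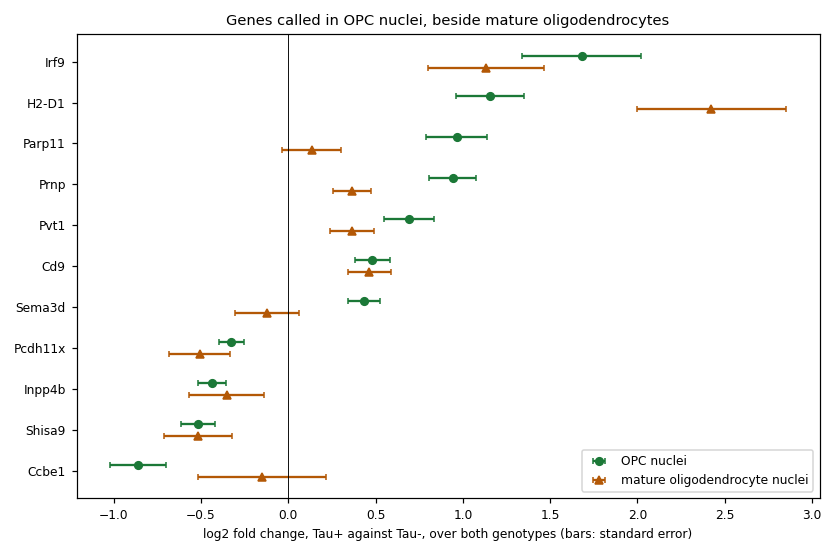
Log2 fold change of Tau+ against Tau- over both genotypes in OPC nuclei (circles) and mature oligodendrocyte nuclei (triangles) for 11 of the 14 genes called in OPCs, with Gm43049 not drawn because its Tau- libraries are at 0 (bars, SE). Of the genes that rose in OPCs, H2-D1 has the larger estimate in mature oligodendrocytes, at 2.42 against 1.16, and that of Sema3d is below 0 there.

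Between the Ch25h genotypes 1 gene differed. Over both tau states Prkg1 fell by 0.40 ± 0.07 on the log2 scale (adjusted p = 0.0140, edgeR), 0.0104% of the genes tested against 281 genes at an unadjusted p under 0.05. Prkg1 encodes cGMP-dependent protein kinase 1. It read 1157, 1222, 1143 and 1237 CPM in Ch25h+/+ Tau+ and 1213, 1083, 1432 and 1260 CPM in Ch25h+/+ Tau-. Prkg1 in Ch25h-/- read 719, 938, 984 and 900 CPM with tau and 888, 963, 876 and 1095 CPM without. The genotypes stood apart with tau and overlapped by 1 pair of libraries without. They did not overlap for 2.39% of genes tested within Tau+ (1.22% higher, 1.17% lower) and for 2.1% within Tau- (0.867% higher, 1.23% lower).

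Within one tau state Prkg1 stood at -0.43 ± 0.10 with tau (adjusted p = 0.514) and -0.38 ± 0.10 without (adjusted p = 1), so the call rests on both. Without 1 library its adjusted p was at most 0.0916, and the call was lost for 5 of the 16 libraries. It was also lost on either side of the split alone (adjusted p up to 0.386). Neurons read 955 and 992 CPM in Ch25h+/+ and 977 and 1032 CPM in Ch25h-/-, and mature oligodendrocytes 103 and 163 CPM against 118 and 156 CPM. Prkg1 (chr19:30564489-31765033) lies 2.71 Mb from Ch25h (chr19:34473778-34475164), so DNA of the line in which the allele was made and the loss of Ch25h cannot be told apart here. Of 34 tested genes within 5 Mb of Ch25h it was the 1 called, 3 had an unadjusted p under 0.05, and their median was -0.02.

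Ch25h itself could not be checked in OPCs. It had 0 UMIs with tau and 1 without in the OPCs of Ch25h+/+, and 2 and 5 UMIs in those of Ch25h-/-, which is too few for a test. Within Tau+ and within Tau- 0 genes were called for the loss of Ch25h (304 and 321 at an unadjusted p under 0.05 in edgeR). With DESeq2 there were also 0 in each, while other settings called up to 5 genes in Tau+ and up to 2 in Tau-. Reln came nearest in Tau+, at -1.77 ± 0.33 (adjusted p = 0.0992), and passed under 2 of 12 other settings and for 2 of the 16 libraries left out. All 15 lists had 0 members called over both tau states. The interferon list had a median of 0.03, with 6 of 11 members positive, and the LXR and cholesterol efflux list, whose receptor binds oxysterols, -0.03 with 7 of 16 positive. Cholesterol synthesis genes had a median of 0.08 with 6 of 10 positive, against 0.00 over all genes tested. The contrasts within Tau+ and the tau contrast in Ch25h+/+ share the Ch25h+/+ Tau+ libraries.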

How the data were processed

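Nuclei of hippocampus were sequenced with the Chromium Single Cell 3' v3.1 chemistry, per the labels' protocols. The deposited values are UMI counts per gene and barcode. The submitters' processing notes name Cell Ranger 3.1.0, Seurat and mm10, while the file headers name Cell Ranger 4. How reads were assigned to introns is not given in the sources used here.

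OPC counts were summed per library, filtered with filterByExpr and tested with edgeR 4.0.16 in R 4.3.3 (TMM scaling, robust quasi-likelihood fit, 1 mean per group, all 16 libraries, two-sided, Benjamini-Hochberg adjustment over all 9578 genes tested). DESeq2 1.42.0 was an alternative. Shares were compared by exact permutation of libraries within the other factor. Doublets were scored with Scrublet within each library, and the 182 OPC nuclei (5.34%) with high scores were kept, and left out as an alternative. The procedure was tested on simulated data. Summed OPC counts of 524623 to 962610 UMIs per library limit the precision for low genes.

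The members, gene lists and tests were chosen with earlier results of these data known. Named by rule were, per contrast, the 12 called genes with the largest difference per direction (mean of 10 UMIs or more per library), the 3 lowest p-values per direction where few were called, a list of lineage, tau and immune genes, and the 2 members of each list with the lowest p. Not all of these are printed. Further members of the interferon and antigen lists, Chd3, Ermard, Tmem135 and Tmem229b were named after their values were seen. Gene coordinates are GENCODE M21 on GRCm38. Results for some genes are not reported here.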

Additional observations from a re-analysis of the deposited data

Results flagged for a closer look

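Of 107 sets of 4 libraries examined, 2 held a library far from the other 3, where chance gives about 1 in 20. Pcdh11x read 722 CPM in replicate 3 of Ch25h-/- Tau+, against 576 to 590 CPM in the other libraries of that group. Olig2 read 71.1 CPM in replicate 4 of Ch25h+/+ Tau+, against 103 to 107 CPM in the others.

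The tau difference was more positive in OPCs than in mature oligodendrocytes for Chd3, by 1.15 on the log2 scale (0.60 against -0.57), and for Ermard, by 1.07 (1.43 against 0.33), by the test of the difference itself in edgeR. For 8 of the 16 libraries left out in turn, 1 of these 2 genes lost the call. In OPCs alone neither gene passed the tau test in the main edgeR fit. Chd3 passed it with the split of the libraries as a term (0.60, adjusted p = 0.0216) and Ermard with DESeq2 (1.42, adjusted p = 0.000137).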

How the results depend on the processing

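Prnp, H2-D1, Parp11, Inpp4b, Ccbe1 and Gm43049 passed the tau test over both genotypes whichever 1 of the 16 libraries was left out. Prnp and Gm43049 also passed under all 11 other settings. On a single side of the split the adjusted p reached 0.298 for Parp11, 0.0849 for H2-D1, 0.133 for Ccbe1 and 0.0737 for Inpp4b, and Parp11 also lost the call with no UMI of other types' rule genes. The call over both genotypes was also lost under 4 of 11 other settings for Pvt1 (adjusted p up to 0.367) and Shisa9 (0.288), 3 for Cd9 (0.535), 2 for Pcdh11x (0.888), 1 for Sema3d (0.706) and 2 of 8 for Irf9 (0.524). Of 12 other settings, the Ch25h+/+ call was lost under 6 for Inpp4b (0.143), 5 for Reln (0.552) and 4 for Shisa9 (0.273), and the Ch25h-/- call under 5 for Pvt1 (0.657), 2 for Parp11 (0.257) and 1 for Prnp (0.257). The number of genes called over both genotypes was 23 with DESeq2, 71 with no filter on low counts, 28 with the split of the libraries as a term, and 6 to 27 with 1 library left out, lowest without replicate 1 of Ch25h-/- Tau+ and highest without replicate 3 of Ch25h+/+ Tau+. In Ch25h+/+ it was 14 with no filter, 1 with the stricter marker rule, 2 with no UMI of other types' rule genes, 1 without high doublet scores, 26 on side 2 of the split, 2 with the contrast's own groups and 1 to 7 with 1 library left out. In Ch25h-/- it was 23 with no filter, 8 with its own groups and 1 to 7. For the loss of Ch25h, Tau+ had 5 with no filter, 1 with no UMI of other types' rule genes, 1 with the split term, 1 on side 2 and 0 to 1 with 1 library left out, Tau- had 1 on side 1 and 2 on side 2, and both states had 2 with no filter, 0 on side 1 and 0 to 1. The interaction had 5 with no filter, 1 on side 1 and 3 on side 2. OPCs against mature oligodendrocytes gave 4 genes at 1000 UMIs, 7 without high doublet scores and 1 to 18 with 1 library left out. OPC nuclei per 100 mature oligodendrocytes differed by -21.3 at 1000 UMIs and by -23.0 to -13.2 with 1 library left out. Small differences changed sign. Olig1 was 0.0101 and Apoe 0.46 on side 2, Ptprz1 -0.0671 and Ifnar1 0.12 on side 1, and with 1 library left out Olig1 ran from -0.20 to 0.0547, Apoe from -0.20 to 0.14 and Ifnar1 from -0.10 to 0.11. In percentage points, the stricter rule gave OPC shares of 0.00992 for Ch25h and 0.0616 for tau in Ch25h+/+, a cell cycle share of -0.161 for Ch25h and a Gpr17 share of 0.947 for Ch25h in Tau-. With no UMI of other types' rule genes the OPC share for tau was -0.0485. Without thinning Gpr17 was 1.54 for Ch25h in Tau- and -1.32 for tau in Ch25h-/-, and at 1000 UMIs 0.331 for tau. The cell cycle share for Ch25h in Tau- was 2.38 without thinning, 0.168 at 1000 UMIs and 0.390 with mitotic genes, an alternative chosen after seeing the data, which gave -0.170 in Tau+. With 1 library left out the OPC share ran from -0.0453 to 0.139 for tau and -0.126 to 0.0584 for Ch25h, the cell cycle share from -0.244 to 0.917 for tau in Ch25h+/+ and -0.332 to 0.922 for Ch25h, and Gpr17 from -2.27 to 0.812 for Ch25h in Tau- and -1.25 to 0.949 for tau in Ch25h-/-. The cause was not tested for any of these. Libraries of different groups could not be paired, because the labels give no replicate numbers and those used here follow accession order.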
